A study of Mus musculus with 28 samples.

Results

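The SNAG zinc fingers are transcriptional repressors that carry a short SNAG sequence at the very start of the protein, and LSD1 with its CoREST scaffolds is the corepressor that this sequence recruits. Expression was followed for 6 SNAG zinc finger genes (Gfi1b, Insm1, Insm2, Snai1, Snai2 and Snai3) and for 4 corepressor genes (Kdm1a, which encodes LSD1, and the CoREST genes Rcor1, Rcor2 and Rcor3). The members were taken by gene name from a set drawn up with earlier results of these data known, and all 10 were found among the 19421 genes measured and passed the filter on low values. Insm2 passed it only through Dox libraries. RNA-seq had been performed in 7 lines of mouse embryonic stem cells (mESCs) derived from A2loxCre cells, each with a single doxycycline (Dox)-inducible cassette ending in mVenus. The cassette encoded Atoh1 (iAtoh1), Gfi1 (iGfi1), Pou4f3 (iPou4f3), Gfi1 and Atoh1 (iG+A), Gfi1 and Pou4f3 (iG+P), Pou4f3 and Atoh1 (iP+A) or all 3 factors (iGPA). Atoh1 carried a FLAG tag, Pou4f3 a MYC tag and Gfi1 none. Each line was differentiated into embryoid bodies (EBs), and Dox (2 µg/ml) was added on day 4 for 48 h. The 14 Dox libraries came from Venus+ cells sorted on day 6, whereas the 14 No Dox libraries came from whole, unsorted EBs of the same age. Each group had 2 libraries, which came from different clones of a line.

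Because all Dox libraries were sorted and no control was, the effect of Dox and that of the sort cannot be told apart within a line. Differences of Dox effects between lines compare sorted libraries, each set against its own unsorted control. EBs hold many cell types, and fewer cells of a type cannot be told apart from less RNA per cell. Blood, mesenchymal, epithelial and pluripotency genes were all detected in the No Dox libraries. The summed level of Pou5f1, Nanog and Zfp42 was highest, at 8841 normalized counts, in iP+A No Dox replicate 2. It was 5911 and 3404 in the iAtoh1 and 459 to 2450 in the other 11 No Dox libraries. Sequencing depth, estimated from the spacing of the lowest values, was 30.3 to 48 M reads per library.

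Gfi1, one of the induced factors, is itself a SNAG zinc finger, so 4 of the 7 lines were made to express a SNAG repressor. The SNAG sequence binds in the catalytic cleft of LSD1, where it resembles the tail of histone H3. LSD1 removes methyl marks from lysine 4 of histone H3, and CoREST holds it together with histone deacetylases on chromatin. Gfi1b and Gfi1 act in blood development, and Gfi1 is also needed for hair cell survival. Insm1 acts in newborn neurons, neuroendocrine cells and outer hair cells, and the Snail proteins repress epithelial genes during epithelial-mesenchymal transition.

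The shared start of the SNAG genes is shown for Gfi1b, Insm2, Snai1 and Snai2 at the level of their coding sequences, since it is the feature that joins them to one corepressor. The first 60 coding bases are printed from the start codon, 5′ to 3′ on the coding strand, from the GENCODE M1 transcripts of NCBIM37 (mm9), and capitals mark the bases identical in all 4 genes.
Gfi1b: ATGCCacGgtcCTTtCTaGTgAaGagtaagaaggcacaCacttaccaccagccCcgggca
Insm2: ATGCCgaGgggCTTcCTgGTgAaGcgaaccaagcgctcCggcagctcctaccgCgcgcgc
Snai1: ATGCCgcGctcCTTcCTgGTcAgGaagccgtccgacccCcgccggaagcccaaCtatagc
Snai2: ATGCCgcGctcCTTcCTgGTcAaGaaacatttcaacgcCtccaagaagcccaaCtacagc
Of the 60 positions, 17 were identical in all 4 genes, and 15 of these lay within the first 27 bases. Compared with Gfi1b over all 60 positions, 30 of 60 bases were identical in Insm2, 27 in Snai2 and 26 in Snai1.

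Promoters were found for 7 of the 10 members in a RefSeq table of mouse promoters (GRCm38.p6), each covering 250 bases before and 50 bases after the annotated start. Those of Gfi1b and Snai1 are shown because Gfi1 family and Snail proteins, respectively, are known to act on them. Both strands were searched for AAATCA (the core of the Gfi1 site), GATAAG (bound by Gata1 and its relatives) and CAGGTG (an E-box bound by Snail proteins), and capitals mark the matches. The Gfi1b promoter is chr2:28621933-28622232, minus strand, and the Snai1 promoter is chr2:167537945-167538244, plus strand.
Gfi1b: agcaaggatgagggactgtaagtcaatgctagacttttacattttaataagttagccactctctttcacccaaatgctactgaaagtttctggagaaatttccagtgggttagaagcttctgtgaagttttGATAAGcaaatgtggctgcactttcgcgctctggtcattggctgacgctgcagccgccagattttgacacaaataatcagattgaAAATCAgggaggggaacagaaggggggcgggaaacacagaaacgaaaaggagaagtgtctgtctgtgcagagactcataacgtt
Snai1: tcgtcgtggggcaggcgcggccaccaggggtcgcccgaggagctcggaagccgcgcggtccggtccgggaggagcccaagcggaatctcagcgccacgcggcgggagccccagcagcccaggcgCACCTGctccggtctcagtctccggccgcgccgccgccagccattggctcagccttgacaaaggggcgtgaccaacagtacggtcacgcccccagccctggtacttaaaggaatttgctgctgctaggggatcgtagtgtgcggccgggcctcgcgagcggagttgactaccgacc
The Gfi1b promoter held AAATCA 34 bases and GATAAG 119 bases before the start. AAATCA was present in 14% and GATAAG in 7.4% of the 32851 promoters of this length. The Snai1 promoter held CAGGTG on the opposite strand, printed as CACCTG, 126 bases before the start, and 20.2% of all promoters held this motif. Insm2 held GATAAG on the opposite strand 96 bases before the start. None of these letters was found in the windows of Kdm1a, Rcor1, Rcor2 and Rcor3.

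The cassettes were checked first. With Dox, Gfi1 was at 8119 to 12487 normalized counts in the 8 libraries of lines carrying it and at 49.7 to 113 in the other 6. Atoh1 was at 12816 to 21242 against 14.3 to 32.5, and Pou4f3 at 4694 to 19883 against 27.7 to 101. All 14 Dox libraries thus held the factors of their labels, although reads of the cassette and of the mouse gene are pooled in these values. Gfi1 also rose with Dox in the lines that had Pou4f3 but not Gfi1 in the cassette, by 1.55 in iPou4f3 (limma adjusted p = 0.000861) and by 1.65 in iP+A cells (8.77e-05). In iAtoh1 cells its log2 fold change was 0.14 (0.743). Atoh1 rose without being in the cassette in iGfi1 (2.04, 0.00025) and iG+P cells (2.7, 4.88e-06), and Pou4f3 in iAtoh1 (2.21, 0.00218) and iG+A cells (3.11, 3.72e-05).

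A member was counted as changed at an adjusted p under 0.05 (limma, over 16837 genes) and an absolute log2 fold change of 1.5 or more, called the fold minimum here. Fold changes are differences of log2(normalized count + 1), a scale that understates changes of genes with few counts, and a value in parentheses after one is its adjusted p. In iAtoh1 cells 2 of the 10 members changed, Insm1 upwards and Gfi1b downwards, where 5.4% of all genes changed. In iGfi1 cells there were also 2, Insm2 up and Snai2 down (4.82% of all genes), and in iPou4f3 cells 1, Insm1 (2.08%). In iG+A cells 5 members changed (12.3%), with Insm1, Rcor2 and Snai1 up and Gfi1b and Snai2 down. In iG+P cells Insm1 rose and Snai2 fell (2 members, 10.5%). In iP+A cells Insm1 rose and Gfi1b and Snai3 fell (3 members, 7.29%). In iGPA cells Insm1 and Rcor2 rose and Gfi1b and Snai2 fell (4 members, 14%). Kdm1a, Rcor1 and Rcor3 did not pass in any of the 7 lines.

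By adjusted p alone, with no fold minimum, 5 members passed in iGPA cells (46% of all genes), 6 in iP+A (24.9%), 4 in iG+P (33.8%) and 6 in iG+A cells (41.3%). In the lines with a single factor 1 passed in iPou4f3 (4.72%), 3 in iGfi1 (26.5%) and 4 in iAtoh1 cells (23.1%). The median log2 fold change of the 10 members ran from −0.03 in iGfi1 to 0.46 in iGPA cells, where that of all genes was 0.02 and 0.01.

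**Figure D1:**
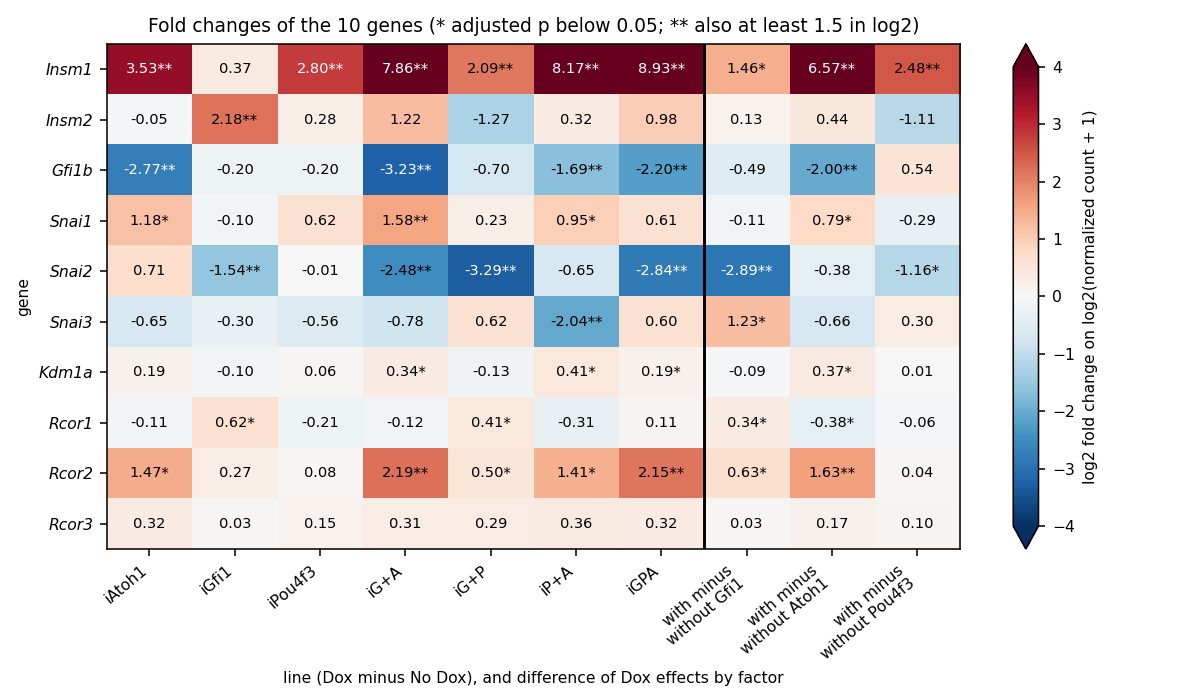
Heat map of log2 fold changes, on log2(normalized count + 1), for the 10 genes (rows) with Dox against No Dox in each of the 7 lines (left columns) and for the difference of Dox effects with against without each factor, averaged over its 3 line pairs (right columns). One star marks an adjusted p under 0.05, and a pair of stars marks genes that also reached the fold minimum of 1.5. Insm1 was highest in the 3 lines with Atoh1 and another factor, Gfi1b was low in the lines with Atoh1, and Snai2 was low in those with Gfi1.

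The 7 lines hold every combination of the factors, so each factor has 3 line pairs whose cassettes differ by that factor alone. The level of a shared factor could differ within a pair, since Pou4f3 with Dox was at 4694 to 5381 normalized counts in iPou4f3, 10868 to 12878 in iP+A, 13037 to 15115 in iGPA and 17590 to 19883 in iG+P cells, and its part in the differences was not tested. The mean of the 3 differences of Dox effects was tested in the same fit. With Gfi1 1 member passed (7.91% of all genes), namely Snai2. With Atoh1 there were 3 (5.13%), Insm1 and Rcor2 with larger and Gfi1b with a more negative Dox effect. With Pou4f3 there was 1 (2.72%), Insm1. By adjusted p alone 5 members passed for Gfi1 (34% of all genes), 6 for Atoh1 (30.6%) and 2 for Pou4f3 (11%). The averages share libraries, so they are not independent of each other.

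**Figure D2:**
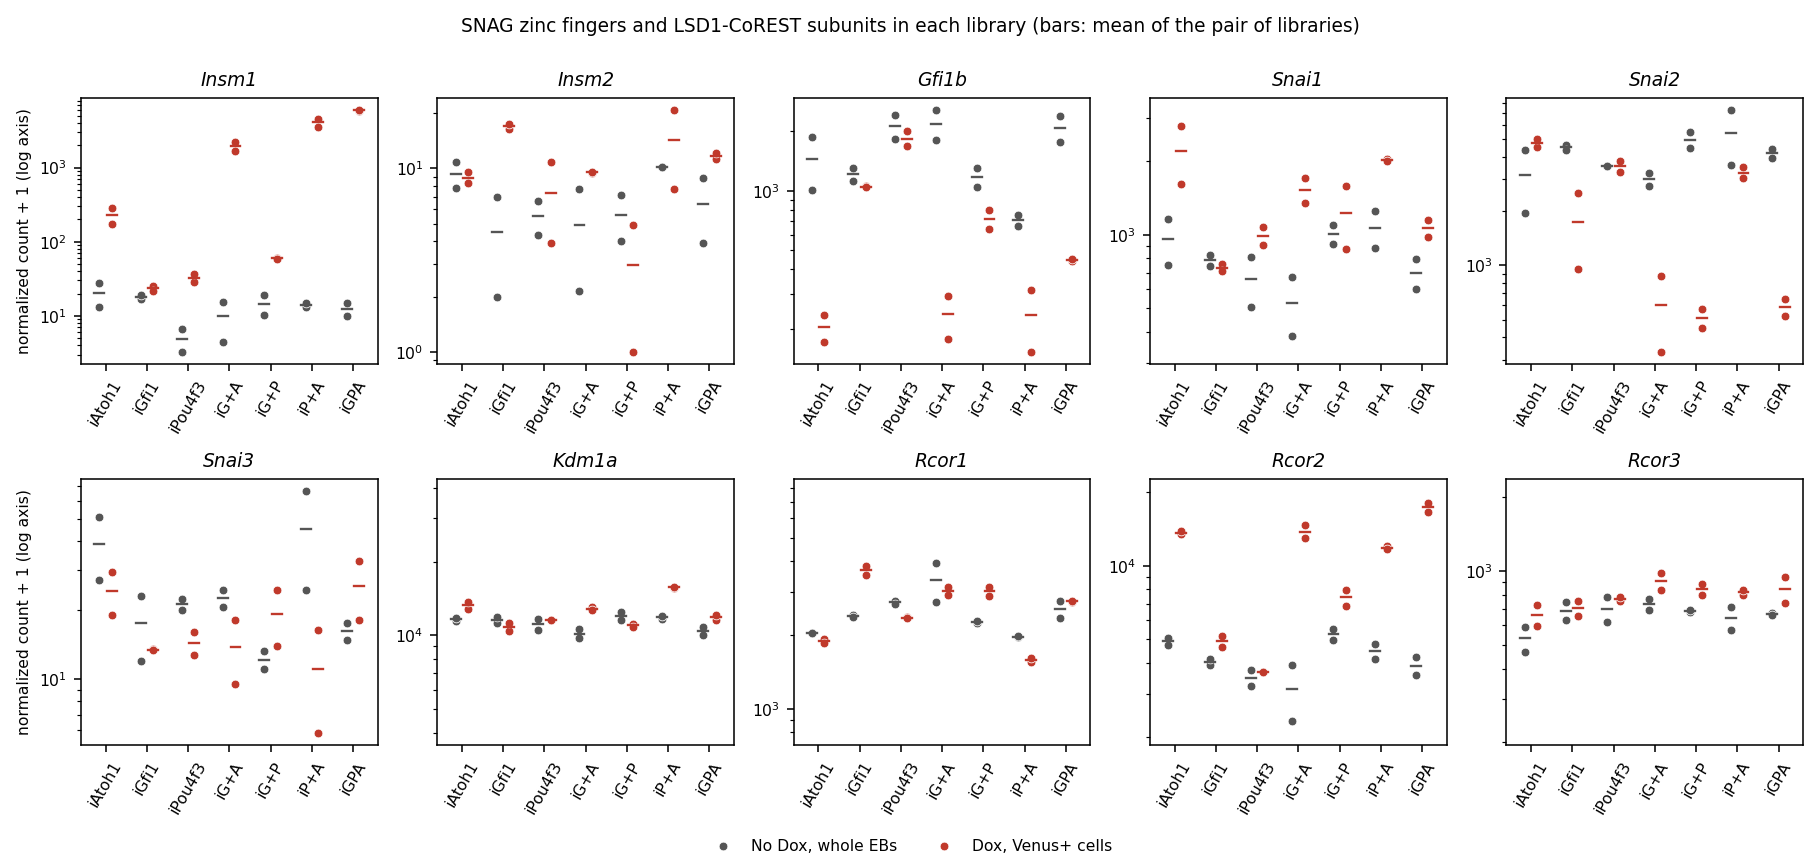
Normalized count + 1 (log axis) of each of the 10 genes in each library, by line, with grey points for No Dox whole EBs, red points for Dox Venus+ cells and a bar at the mean of the pair. Insm1 with Dox ran from 20.6 to 6019 normalized counts, whereas Kdm1a with Dox ran from 10380 to 15785.

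Insm1 (Entrez 53626, chromosome 2, 146047657 to 146050752, plus strand, NCBIM37), a repressor gene of newborn neurons and neuroendocrine cells, had the largest fold change of the 10 members in 5 lines (iAtoh1, iPou4f3, iG+A, iP+A and iGPA). In the 14 No Dox libraries it was low, from 2.26 to 26.4 normalized counts. With Dox it had 279 and 171 normalized counts in iAtoh1, 2233 and 1689 in iG+A, 4579 and 3540 in iP+A and 5822 and 6019 in iGPA cells. These 8 libraries all lay above every other library. The lines without Atoh1 had 60 and 57.3 normalized counts in iG+P, 27.6 and 35.2 in iPou4f3 and 24.2 and 20.6 in iGfi1 cells. The order of the levels with Dox was therefore iGPA, iP+A, iG+A, iAtoh1, iG+P, iPou4f3 and iGfi1, and no neighbouring lines overlapped.

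Insm1 rose with Dox in 6 of the 7 lines. The log2 fold change was 8.93 in iGPA (standard error 0.49 in every line, limma adjusted p = 1.57e-10), 8.17 in iP+A (1.18e-09), 7.86 in iG+A (1.3e-09) and 3.53 in iAtoh1 cells (4.92e-05). It was 2.8 in iPou4f3 (0.00178) and 2.09 in iG+P cells (0.00253), and in iGfi1 cells it was 0.37 (0.613). The rise in iPou4f3 cells started from 2.26 and 5.57 normalized counts, and with only the groups compared in the fit its adjusted p was 0.0867.

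The matched pairs gave the difference in the Insm1 response with each factor. Adding Atoh1 raised the Dox effect by 7.49 over iGfi1, 5.37 over iPou4f3 and 6.84 over iG+P cells, with a mean of 6.57 (standard error 0.40, limma adjusted p = 2.62e-09). This mean stayed between 6.27 and 6.87 whichever library was left out. Adding Gfi1 to Atoh1 raised the effect by 4.33 (0.00031), whereas adding it to Pou4f3 gave −0.70 (0.536) and adding it to Pou4f3 and Atoh1 gave 0.76 (0.491). Adding Pou4f3 to Atoh1 raised it by 4.64 (0.000368), while adding it to Gfi1 gave 1.72 (0.199) and adding it to Gfi1 and Atoh1 gave 1.07 (0.434). A second factor beside Atoh1 thus went with a larger Insm1 response, and for the third factor the 95% intervals were −0.69 to 2.21 (Gfi1) and −0.38 to 2.52 (Pou4f3). The means over the 3 pairs were 2.48 (0.00034) for Pou4f3 and 1.46 (0.00789) for Gfi1. The latter was just below the fold minimum, and in 9 of the 28 fits with 1 library left out it was above, up to 1.76.

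**Figure D3:**
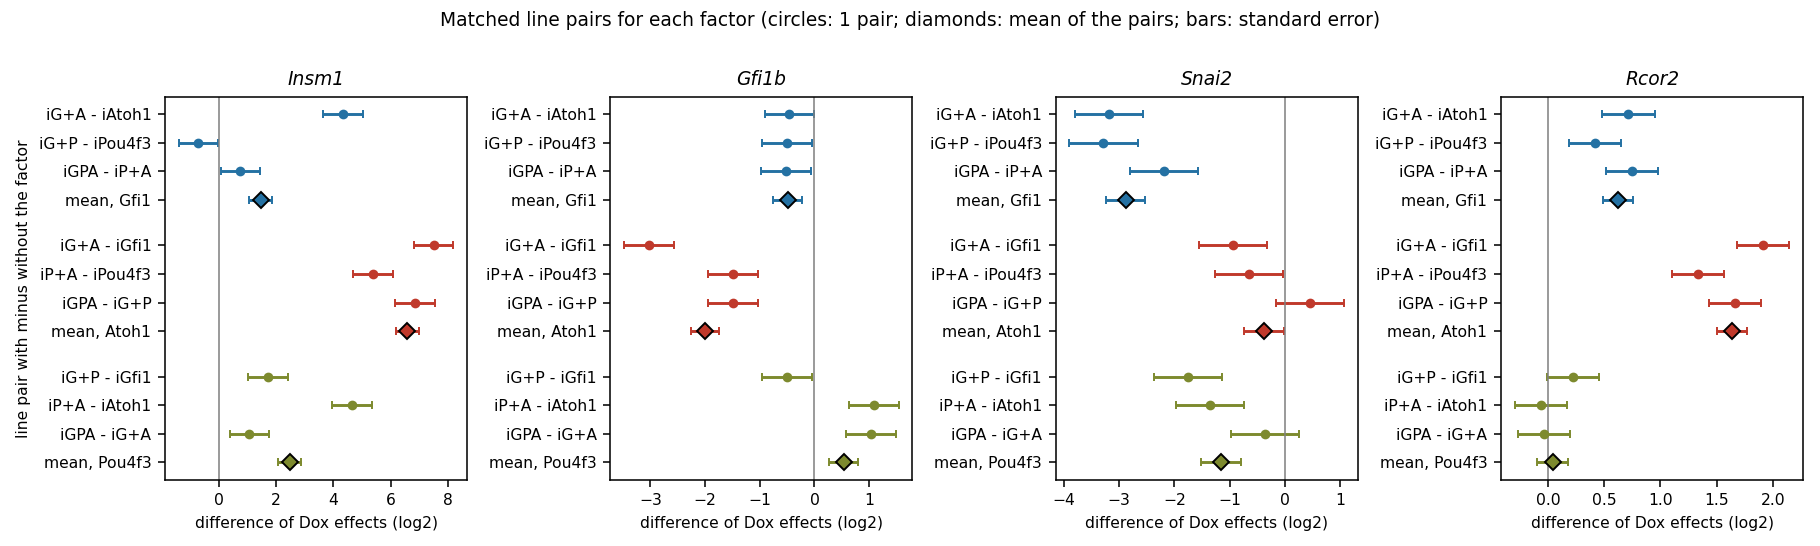
Difference of Dox effects (log2, x axis) between matched lines with and without Gfi1 (blue), Atoh1 (red) or Pou4f3 (green), for Insm1, Gfi1b, Snai2 and Rcor2. Circles are single line pairs, diamonds are means over the 3 pairs and bars are standard errors. All 3 pairs for Atoh1 lie to the right of 0 for Insm1 and Rcor2 and to the left for Gfi1b, and all 3 pairs for Gfi1 lie to the left for Snai2.

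Other genes of neurons and neuroendocrine cells were set beside Insm1. Of 11 such genes tested (13 listed), 10 rose in iP+A, 8 in iGPA, 7 in iG+A, 4 in iAtoh1, 3 in iG+P, 1 in iPou4f3 and 1 in iGfi1 cells, and none fell past the threshold in any line. The filter shaped these counts. Neurog1 and Neurog2 passed it only through Dox libraries, with at most 2.05 and 4.08 normalized counts without Dox, and so had little room to fall. Neurod4 and Neurog3 were left out, at no more than 8.51 and 7.22. With Atoh1 6 of the 11 had a larger Dox effect, with a median difference of 2.46 against 0.01 for all genes. Nhlh1, a helix-loop-helix gene of newborn neurons, differed by 4.08 (1.27e-06), and Syp, a synaptic vesicle gene, by 2.97 (8.38e-07).

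Gfi1b (Entrez 14582, chromosome 2, 28464970 to 28477502, minus strand, NCBIM37), a repressor needed for red cells and platelets, was well expressed in EBs without Dox, from 664 to 2569 normalized counts. In iAtoh1 cells it had 1009 and 1872 normalized counts without and 171 and 235 with Dox. In iG+A cells it had 2569 and 1802 without and 178 and 294 with Dox. In iP+A cells the values were 664 and 749 without and 152 and 314 with Dox, and in iGPA cells 1761 and 2386 without and 439 and 452 with Dox. In iGfi1 cells there were 1301 and 1117 normalized counts without and 1057 and 1041 with Dox. In iPou4f3 cells there were 2416 and 1819 without and 1678 and 1996 with Dox, which overlapped, and in iG+P cells 1040 and 1296 without and 637 and 797 with Dox. Both Dox libraries thus lay below both No Dox libraries in the 4 lines with Atoh1 and in iGfi1 and iG+P cells. With Dox, Gfi1b was at 152 to 452 normalized counts in the lines with Atoh1 and at 637 to 1996 in the others.

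Gfi1b fell in the 4 lines with Atoh1. Its log2 fold change was −2.77 in iAtoh1 (standard error 0.32 in every line, limma adjusted p = 7.88e-06), −3.23 (4.04e-07) in iG+A, −1.69 (0.000806) in iP+A and −2.2 (2.14e-05) in iGPA cells. Without Dox replicate 1 of iP+A the value there was −1.16, below the fold minimum, and with only the groups compared in the fit the adjusted p was 0.0544. The fold changes were −0.20 (0.688) in iGfi1, −0.20 (0.81) in iPou4f3 and −0.70 (0.102) in iG+P cells. The difference with Atoh1 was −3.03 (0.000164) over iGfi1, −1.49 (0.0919) over iPou4f3 and −1.49 (0.0322) over iG+P cells, of which the first alone passed the threshold. The mean difference was −2.0 (standard error 0.26, limma adjusted p = 1.73e-05) and lay between −2.18 and −1.83 whichever library was left out. With Gfi1 it was −0.49 (0.163), with a 95% interval of −1.04 to 0.06, and with Pou4f3 it was 0.54 (0.222).

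Gfi1b was set beside 15 genes of blood, the tissue in which it is known to act. Of these, 8 fell and none rose past the threshold in iAtoh1 cells, 7 fell and 1 rose in iP+A, 4 fell and 1 rose in iG+A, and 4 fell and 1 rose in iGPA cells. With Atoh1 7 of 15 had a more negative Dox effect, with a median of −1.47 against 0.01 for all genes. Gata1, the master regulator of red cells, differed by −1.9 (9.29e-06) and its partner Klf1 by −2.53 (9.33e-06), beside −2.0 for Gfi1b. The summed level of the 15 genes in iAtoh1 cells was 20185 to 23726 normalized counts with Dox and 190396 to 212526 without, and none of them was at 0 in these libraries. In iP+A cells the sums were 17433 to 36149 and 108779 to 126647, in iG+A cells 60193 to 81063 and 397083 to 508680 and in iGPA cells 42526 to 69199 and 272464 to 452129. In these 4 lines this sum and Gfi1b were thus lower in the same libraries. The sum is mostly globin, with No Dox medians of 150379 (Hbb-bh1) and 57809 (Hba-x) normalized counts, against 4520 or less for each other gene. By adjusted p alone 3 of the 15 genes were higher and 5 lower in iGPA cells, with a median of −0.63. In iG+A cells 1 was higher and 9 were lower. In iPou4f3 cells the sums were 260412 to 274965 with and 394650 to 506182 without Dox, while the Gfi1b values overlapped, and the part of the share of blood cells in the Gfi1b values was not tested.

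In iGfi1 and iG+P cells the median of the blood genes was above 0 and the value of Gfi1b below 0. The blood genes summed in iGfi1 cells to 383662 and 210026 normalized counts with Dox in replicates 1 and 2, against 267473 and 184232 without. In iG+P cells the sums were 51260 and 102333 with Dox against 73984 and 145809 without. By replicate number the sum was thus higher with Dox in iGfi1 and lower in iG+P cells, but in both lines the ranges with and without Dox overlapped. In iGfi1 cells 3 of 15 blood genes rose past the threshold and 9 were higher by adjusted p alone, with a median of 0.90 against 0.02 for all genes. Of the 15, 2 rose and 2 fell in iG+P cells, with a median of 0.71 against 0.0027. Gata1 had log2 fold changes of 1.08 (0.00957) in iGfi1 and 1.42 (0.000798) in iG+P cells, both below the fold minimum, beside −0.20 and −0.70 for Gfi1b. Averaged over the 3 pairs for Gfi1, 3 of the 15 blood genes had a larger Dox effect past the threshold and 0 a more negative one, with a median of 0.84 against 0.01 for all genes and a range of −0.82 to 2.44. By adjusted p alone 10 were higher and 0 lower. In the same contrast Gata1 differed by 1.34 (0.000219), Klf1 by 0.84 (0.0457) and the haematopoietic cofactor Lmo2 by 2.44 (3.17e-07). The value for Gfi1b was −0.49, and among Dox libraries only it was −0.05 (0.843). The difference between Gfi1b and these genes was not tested.

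**Figure D4:**
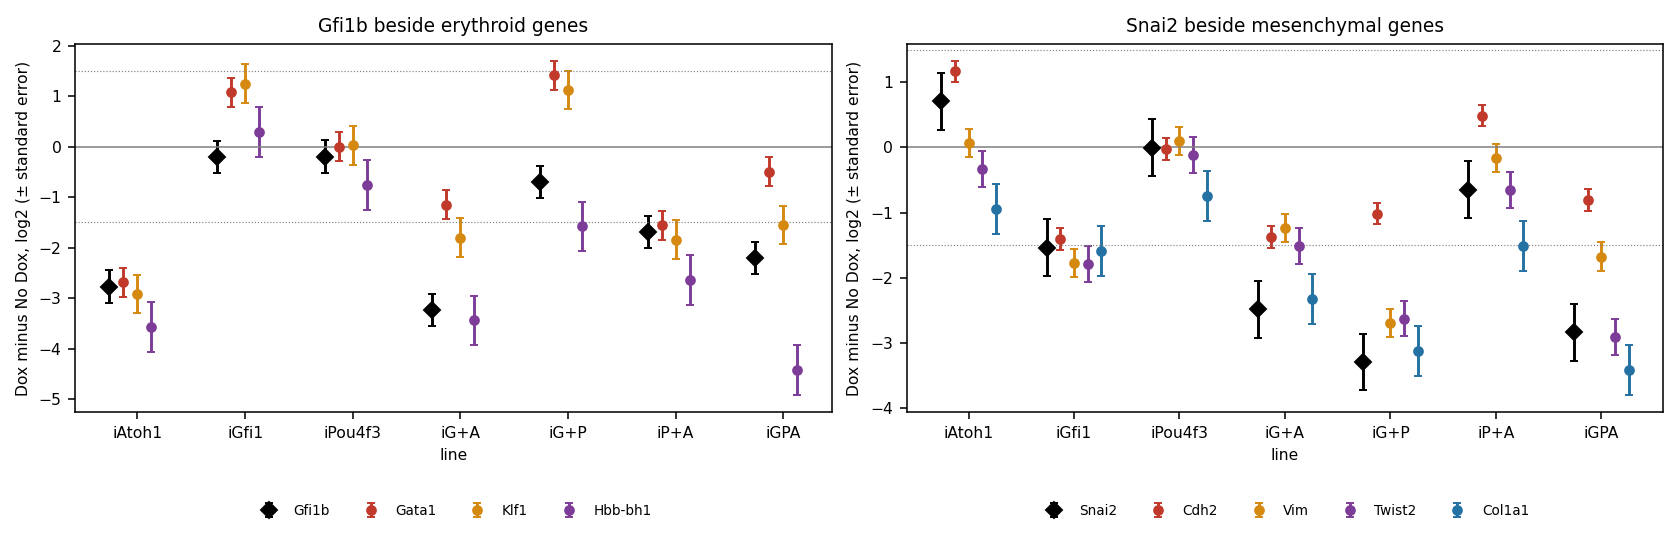
Log2 fold changes with Dox (y axis, ± standard error) in each line for Gfi1b beside 3 red cell genes (left) and for Snai2 beside 4 mesenchymal genes (right), with dotted lines at the fold minimum of 1.5. Gfi1b (black diamonds) lies close to Gata1 in iAtoh1 and iP+A cells and below it in iGfi1 and iG+P cells, and Snai2 (black diamonds), Vim and Twist2 are all below 0 in the 4 lines with Gfi1.

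Snai2 (Entrez 20583, chromosome 16, 14705945 to 14709488, plus strand, NCBIM37), also known as Slug, is a repressor of migrating mesenchyme and neural crest. In iG+P cells it had 5466 and 4491 normalized counts without and 445 and 571 with Dox. In iGPA cells it had 4406 and 3950 without and 652 and 521 with Dox, and in iG+A cells 3273 and 2741 without and 870 and 329 with Dox. In iGfi1 cells it had 4664 and 4380 without and 956 and 2517 with Dox. All 8 Dox libraries with Gfi1 were below the 6 Dox libraries without it, at 329 to 2517 against 3044 to 5022 normalized counts. In the lines without Gfi1 there were 3547 and 3537 without and 3768 and 3301 with Dox in iPou4f3 cells. There were 1941 and 4378 without and 4515 and 5022 with Dox in iAtoh1 cells, and 7300 and 3597 without and 3498 and 3044 with Dox in iP+A cells. In iAtoh1 and iP+A cells the No Dox replicates differed more than the Dox replicates.

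Snai2 fell in the 4 lines with Gfi1. Its log2 fold change was −3.29 in iG+P (standard error 0.44 in every line, limma adjusted p = 1.14e-05), −2.84 (3.73e-05) in iGPA, −2.48 (2e-04) in iG+A and −1.54 (0.0142) in iGfi1 cells. The call in iGfi1 cells was lost without Dox replicate 1 (−0.84, 0.26), without No Dox replicate 1 (adjusted p = 0.0722) or 2 (0.0645) and with only the groups compared (0.0655). The fold changes were 0.71 (0.261) in iAtoh1, −0.01 (0.997) in iPou4f3 and −0.65 (0.302) in iP+A cells. The difference with Gfi1 was −3.19 (0.00168) in iG+A against iAtoh1, −3.29 (0.00123) in iG+P against iPou4f3 and −2.19 (0.0194) in iGPA against iP+A cells. Its mean was −2.89 (standard error 0.36, limma adjusted p = 5.81e-06), between −3.12 and −2.65 whichever library was left out. The mean difference with Atoh1 was −0.38 (0.462), and that with Pou4f3 was −1.16 (0.0434), below the fold minimum.

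Mesenchymal genes were set beside Snai2. Of 12 such genes 7 fell in iGPA, 6 in iG+P, 4 in iGfi1 and 3 in iG+A cells, and none rose past the threshold in these lines. By adjusted p alone 2 were higher and 9 lower in iGPA, 1 and 8 in iG+P, 0 and 7 in iGfi1 and 2 and 7 in iG+A cells. In iAtoh1 cells 2 fell and 1 rose, and in iP+A cells 2 fell. Limma called 0 of the 12 in the iPou4f3 line (1 at an unadjusted p under 0.05). With Gfi1 5 of 12 had a more negative Dox effect, with a median of −1.32 against 0.01 for all genes and a range of −2.64 to 0.90. By adjusted p alone 8 were lower and 0 higher. Vim, an intermediate filament of mesenchyme, differed by −1.87 (2.76e-07), the transcription factor gene Twist2 by −1.98 (2.26e-06), the collagen gene Col1a2 by −2.64 (9.67e-06) and the cadherin gene Cdh2 by −1.61 (6.62e-08), beside −2.89 for Snai2. The summed level of the 12 genes in iGPA cells was 71137 to 79391 normalized counts with Dox against 221557 to 278791 without, in iG+P cells 102322 to 126971 against 191846 to 211607, in iG+A cells 123474 to 168145 against 268851 to 319229 and in iGfi1 cells 147506 to 156159 against 270023 to 292580. The sum was also lower with Dox in iAtoh1 (121667 to 144277 against 169584 to 226791) and iP+A cells (153924 to 172801 against 227682 to 313627), where Snai2 did not pass, and it overlapped in iPou4f3 cells. By replicate number the sum was lower with Dox in iPou4f3 cells too, at 286471 and 193084 normalized counts against 346406 and 255759.

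Of 3 mesoderm markers (T, Mesp1 and Hand1), Hand1, a transcription factor gene of lateral and extraembryonic mesoderm, fell in the 4 lines with Gfi1. Its log2 fold change was −2.51 (3e-05) in iGfi1, −3.49 (1.69e-07) in iG+A, −3.56 (1.45e-07) in iG+P and −3.55 (7.87e-08) in iGPA cells, and 0.31 to 0.53 in the other lines. T and Mesp1 passed in none of the 7 lines, but with Gfi1 Mesp1, a gene of early mesoderm, had a larger Dox effect (2.94, 0.044), opposite to Hand1 (−3.92, 4.45e-09), and T differed by 1.82 (0.184). The log2 fold changes of Mesp1 were 2.55 (0.169) in iGfi1, 1.74 (0.314) in iG+A, 2.24 (0.215) in iG+P and 3.03 (0.0716) in iGPA cells. Sums of the 3 genes largely repeat Hand1, which was at 15371 to 47582 normalized counts without Dox, where T reached 482 and Mesp1 119. The summed level of the 3 genes was 3984 to 4137 normalized counts with Dox against 35647 to 47795 without in iG+P cells and 2280 to 3489 against 25824 to 36003 in iGPA cells. In iG+A cells it was 1612 to 1989 against 15392 to 20852 and in iGfi1 cells 4511 to 7597 against 28735 to 34441. In iAtoh1, iPou4f3 and iP+A cells the highest sum came from a Dox library. The part of the share of mesenchymal and mesodermal cells in the Snai2 values was not tested.

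Epithelial genes are the classical targets of Snail proteins. Of 13 such genes 6 fell in iAtoh1, 4 in iG+A, 4 in iGfi1, 3 in iP+A, 3 in iG+P and 2 in iGPA cells, and in iPou4f3 cells limma called 0 of them (2 at an unadjusted p under 0.05). The claudin gene Cldn3 rose in iG+A (3.15, 0.00029) and iGPA cells (2.82, 0.000585). With Gfi1 2 of the 13 had a larger and 1 a more negative Dox effect, with a median of 0.67 against 0.01 for all genes, and the gene with the more negative effect was the keratin gene Krt8 (−1.53, 8.28e-05). Both directions were thus seen among epithelial genes in the contrast in which Snai2 was lower.

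Snai1 (Entrez 20613, chromosome 2, 167363695 to 167368314, plus strand, NCBIM37), the other well known Snail repressor, was at 385 to 1251 normalized counts without Dox. In iG+A cells it had 385 and 668 normalized counts without and 1343 and 1712 with Dox, a rise of 1.58 (standard error 0.32, limma adjusted p = 0.000759). That rise was below the fold minimum without No Dox replicate 1 (1.18) or Dox replicate 2 (1.4). In iAtoh1 cells it had 752 and 1162 without and 1605 and 2787 with Dox (1.18, 0.013). In iP+A cells it had 1251 and 881 without and 2036 and 2008 with Dox (0.95, 0.0387), and in iGPA cells 798 and 601 without and 1149 and 975 with Dox (0.61, 0.131). In iPou4f3 cells it had 508 and 811 without and 909 and 1074 with Dox. In these 5 lines both Dox libraries were above both No Dox libraries, but only iG+A cells reached the fold minimum with all libraries. In iAtoh1 cells it was reached without Dox replicate 1 (1.58). The fold changes were 0.62 (0.325) in iPou4f3, 0.23 (0.627) in iG+P and −0.10 (0.855) in iGfi1 cells. The mean difference was 0.79 (0.0285) with Atoh1, −0.11 (0.793) with Gfi1 and −0.29 (0.56) with Pou4f3.

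Insm2 and Snai3 had few reads. Insm2 (Entrez 56856, chromosome 12, 56699904 to 56703005, plus strand, NCBIM37), a relative of Insm1, was at 1 to 9.79 normalized counts without and 0 to 19.9 with Dox. It passed the filter of 10 normalized counts only through Dox libraries, among them both of iGfi1 cells, the line in which it was called. In iGfi1 cells it had 1 and 6.01 without and 15.5 and 16.5 with Dox, a rise of 2.18 (standard error 0.78, limma adjusted p = 0.0468). This call was lost with a pseudocount of 0.5 (0.0646), with a pseudocount of 5 (log2 fold change 1.37) and in 17 of the 28 fits with 1 library left out, for instance without iGfi1 No Dox replicate 1 (1.27, 0.366). In iG+P cells its fold change was −1.27 (0.231), and without Dox replicate 1 it was −2.42 (0.0461).

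Snai3 (Entrez 30927, chromosome 8, 124978106 to 124984592, minus strand, NCBIM37), the third Snail gene, was at 10 to 65.2 normalized counts without and 4.8 to 31.7 with Dox. In iP+A cells it had 23.4 and 65.2 without and 15.4 and 4.8 with Dox, which gave −2.04 on the log2 scale (standard error 0.55, limma adjusted p = 0.0111). The highest of these values came from No Dox replicate 2, the library with the highest sum of pluripotency genes, without which the log2 fold change was −1.32 (0.171). Without Dox replicate 2 it was −1.3 (0.176). The mean difference with Gfi1 was 1.23 (0.0423), below the fold minimum, and among Dox libraries only it was 0.28 (0.484).

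Kdm1a (Entrez 99982, chromosome 4, 136106455 to 136158638, minus strand, NCBIM37), the gene of the demethylase itself, was the most evenly expressed member, at 9777 to 12433 normalized counts without and 10380 to 15785 with Dox. Kdm1a in iP+A cells had 11701 and 12006 without and 15631 and 15785 with Dox (0.41, standard error 0.07, limma adjusted p = 0.000297). In iG+A cells it had 9777 and 10557 without and 13028 and 12644 with Dox (0.34, 0.000819), and in iGPA cells the fold change was 0.19 (0.0358). These 3 were higher by less than the fold minimum, and the 95% intervals of all 7 lines lay between −0.28 and 0.55. The mean difference was 0.37 (9.3e-05) with Atoh1, −0.09 (0.268) with Gfi1 and 0.01 (0.928) with Pou4f3.

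Rcor2 (Entrez 104383, chromosome 19, 7341815 to 7349715, plus strand, NCBIM37) encodes a CoREST scaffold known from stem cells and neural progenitors. It had 5070 and 4761 normalized counts without and 13411 and 13855 with Dox in iAtoh1 cells. It had 2311 and 3937 without and 12949 and 14596 with Dox in iG+A cells, 4170 and 4769 without and 12051 and 11644 with Dox in iP+A cells and 4249 and 3559 without and 16628 and 18027 with Dox in iGPA cells. In the lines without Atoh1 there were 3942 and 4174 without and 4652 and 5177 with Dox in iGfi1, 3219 and 3758 without and 3684 and 3661 with Dox in iPou4f3, and 5521 and 4986 without and 7982 and 6855 with Dox in iG+P cells. With Dox, Rcor2 was thus at 11644 to 18027 normalized counts in the lines with Atoh1 and at 3661 to 7982 in the others.

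Rcor2 rose by 2.19 in iG+A (standard error 0.16 in every line, limma adjusted p = 1.38e-08) and by 2.15 (9.09e-09) in iGPA cells. In iAtoh1 and iP+A cells the fold changes of 1.47 (5.01e-06) and 1.41 (4.49e-06) were just below the fold minimum, and they reached it without No Dox replicate 1 of iAtoh1 (1.52) and No Dox replicate 2 of iP+A (1.51). In iG+A cells the rise was 1.8 without No Dox replicate 1 and 2.57 without replicate 2. The fold change was 0.50 (0.0254) in iG+P, 0.27 (0.231) in iGfi1 and 0.08 (0.854) in iPou4f3 cells. The difference with Atoh1 was 1.91 over iGfi1, 1.33 over iPou4f3 and 1.66 over iG+P cells, with a mean of 1.63 (standard error 0.13, limma adjusted p = 9.88e-08). Compared among Dox libraries only, this mean was 1.47, just below the fold minimum. With Gfi1 the mean was 0.63 (0.00132) and with Pou4f3 0.04 (0.895), with a 95% interval of −0.24 to 0.32.

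Rcor1 (Entrez 217864, chromosome 12, 112277561 to 112354112, plus strand, NCBIM37), the gene of the founding CoREST protein, had its highest Dox level in iGfi1 cells, at 3828 and 3508 normalized counts against 2411 and 2372 without Dox (0.62, standard error 0.12, limma adjusted p = 0.000847). In iG+P cells it had 2241 and 2289 without and 3141 and 2883 with Dox (0.41, 0.00991), and in iP+A cells 1956 and 1979 without and 1556 and 1616 with Dox (−0.31, 0.0572). The mean difference was 0.34 (0.00864) with Gfi1 and −0.38 (0.00518) with Atoh1, both below the fold minimum. With Dox, Rcor1 was at 2733 to 3828 normalized counts in the lines with Gfi1 and at 1556 to 2361 in the others. Among Dox libraries only, the mean difference was 0.61 (5.14e-07) with Gfi1 and −0.33 (0.000637) with Atoh1. Rcor3 (Entrez 214742, chromosome 1, 193922652 to 193961892, minus strand, NCBIM37) was at 468 to 782 normalized counts without and 597 to 983 with Dox. Its fold changes ran from 0.03 to 0.36 over the 7 lines, with a lowest adjusted p of 0.108.

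To compare the 3 CoREST genes with each other, normalized counts were divided by the length of each gene's longest coding transcript (5685 bases for Rcor1, 2801 for Rcor2 and 3566 for Rcor3) and expressed as shares of their sum. Rcor2 accounted for 47.6% to 78.7% of the sum in the 14 No Dox libraries and for 84.8% to 90.4% in the 8 Dox libraries with Atoh1. In the 6 Dox libraries without Atoh1 its share was 66% to 78%, within the No Dox range. The share of Rcor1 was 15.4% to 39.97% without Dox, 5.7% to 10.2% with Dox and Atoh1 and 15.1% to 26.7% with Dox and no Atoh1. Rcor3 held 5.71% to 12.5%, 2.9% to 5.06% and 6.82% to 11.4%. The normalized count per kb of Rcor2 was 4157 to 6436 with Dox and Atoh1 and 825 to 1971 without Dox, whereas that of Rcor1 was 274 to 553 and 344 to 693, which overlapped. The lowest Rcor2 and the highest Rcor1 share came from iG+A No Dox replicate 1. The next values among No Dox libraries were 62.02% for Rcor2 and 26.15% for Rcor1, both in iPou4f3 replicate 1. These shares describe RNA levels and assume that the longest transcript represents each gene.

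**Figure D5:**
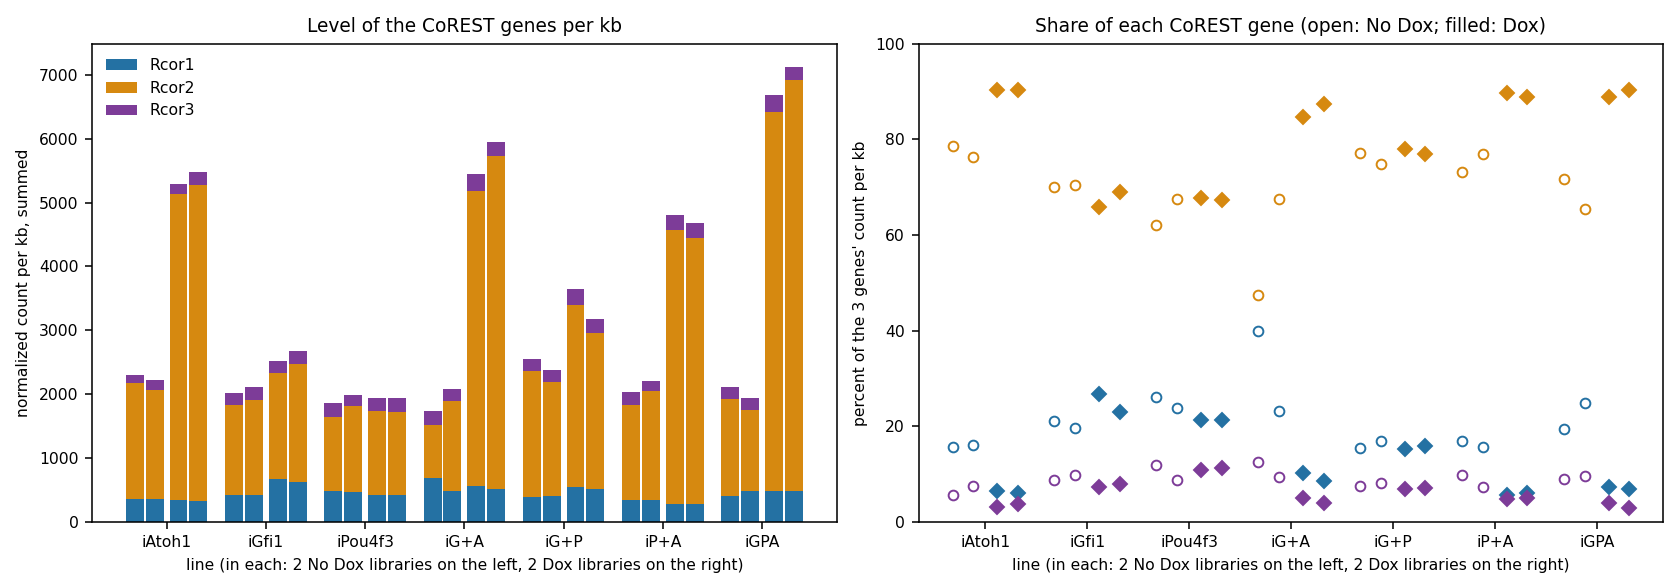
Left, normalized count per kb of Rcor1, Rcor2 and Rcor3, stacked, in each of the 28 libraries by line, with 2 No Dox libraries on the left and 2 Dox libraries on the right of each line. Right, the share of each gene in the sum of the 3 (percent, open circles for No Dox, filled diamonds for Dox), where Rcor2 is at 84.8% or above in the 8 Dox libraries with Atoh1 and at 78.7% or below in all others.

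Of 17 other subunits and partners of LSD1 and CoREST, 0 were past the threshold in any of the 7 lines by limma, while 2 (iPou4f3) to 11 (iP+A) per line had an unadjusted p under 0.05 and 0 to 9 an adjusted p under 0.05. Their median log2 fold change in iP+A cells was 0.26, where that of all genes was −0.03. The deacetylase gene Hdac1 had fold changes from −0.21 (iAtoh1) to 0.36 (iG+A), and Hdac2 from −0.03 (iPou4f3) to 0.33 (iP+A). With Gfi1 11 of the 17 passed by adjusted p alone, 4 higher and 7 lower, where 34% of all genes passed. With Atoh1 7 passed (30.6%) and with Pou4f3 0 (11%). Gse1, a CoREST-associated gene, had the highest of the 17 differences with Gfi1, 0.71 (5.64e-05). The LIM protein genes Ajuba and Wtip, partners of Snail proteins, had differences of −0.79 (0.00306) and −0.42 (0.00266) with Gfi1. Rest, which recruits CoREST to neuronal genes, had a fold change of −0.44 (0.036) in iGPA cells. Among these 17 genes and the 4 corepressor members, Rcor2 was the only one past the threshold in a line.

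Among 4 other SNAG zinc finger genes (Scrt1, Scrt2, Ovol1 and Ovol2), Scrt1, a neuronal Snail relative, rose from 6.32 ± 1.14 to 179 ± 35.3 (SD, n = 2) normalized counts in iP+A cells, a log2 fold change of 4.61 (limma adjusted p = 5.91e-06). It also rose in iGPA (2.34, 0.00194) and iG+A cells (1.82, 0.0129). Scrt2 rose in iP+A cells from 8.06 ± 4.21 to 118 ± 41.2 normalized counts (SD, n = 2), with a log2 fold change of 3.75 (0.000618), whereas in iGPA cells its fold change was −0.44 (0.635). Scrt1 had a larger Dox effect with Atoh1 (2.12, 0.00152) and with Pou4f3 (1.74, 0.0162) and a difference of 0.38 (0.557) with Gfi1. With Dox it was at 154 to 204 normalized counts in iP+A and 47.1 to 49.4 in iGPA cells, while Insm1 was higher in iGPA cells. Ovol1, a regulator of epithelial cells, had a larger Dox effect with Gfi1 (1.52, 0.00144), although it passed the threshold in none of the 7 lines.

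For each member past the threshold in a line, the 3 genes with the most similar group means were found by Pearson correlation of log2 means over the 14 groups, which share libraries and line differences. For Insm1 these were Barhl1 (r = 0.976), Agrn (0.965) and Syp (0.963). Barhl1 is a homeobox gene of neurons and hair cells. For Gfi1b they were Tubb4b (0.963), Ncf4 (0.955) and Ppfia1 (0.95), and for Snai2 Itgb5 (0.985), Slc26a11 (0.982) and Erbb2 (0.979). Itgb5 and Erbb2 are cell surface receptors. For Rcor2 they were Dennd2a (0.984), Cxxc5 (0.979) and Adssl1 (0.978), and for Snai1 Pigx (0.946), Ptk7 (0.941) and 4931414P19Rik (0.939). For the low genes Insm2 and Snai3 the highest values were 0.826 (Acot12) and 0.851 (Fbxo43).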

How the data were processed

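RNA-seq of 28 libraries was analysed from 1 deposited matrix. Adapters had been trimmed with cutadapt, reads pseudo-aligned with kallisto to UCSC knownGene transcripts (mm9), transcripts summed to genes with tximport and counts normalized with DESeq2, in versions not given in the sources used here. The values the authors deposited are log2 of the normalized count plus 1, for 19421 Entrez genes, of which 19314 were named from a RefSeq gene table. Only 72.4% to 79.4% of low values per library came within 0.05 of whole reads, so reads were not recovered and no count model was run. Sums of normalized counts were 36.8 to 40.4 M, and 17628 to 18074 genes were above 0 per library.

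A gene was kept (n = 16837) if 2 or more libraries had a normalized count of 10 or above. Kept genes were fitted together in limma 3.58.1 (R 4.3.3) using 14 group means, a variance trend and 14 residual degrees of freedom, and p-values were adjusted by Benjamini-Hochberg within each contrast. The script was tested on simulated data. Contrasts were Dox against No Dox per line and, per factor, the mean of 3 matched differences of Dox effects. Figures were drawn with matplotlib 3.10.9 in Python 3.11.15.

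The members and gene lists were chosen with earlier results of these data known. The genes named are the members, the 3 factors, genes from the lists and the 3 genes most like each member past the threshold. Some list genes named did not pass the threshold in the comparison described. Among these are all the LSD1 and CoREST partners and all the proliferation genes named. Gene coordinates are NCBIM37 (GENCODE M1), and promoters are GRCm38.p6 (RefSeq). Some gene and sequence results are not reported here.

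Deviations of Dox and No Dox libraries with the same replicate number correlated by 0.10 to 0.25 in the 7 lines, so the numbers were taken as pairs in an alternative fit with a replicate block. They mark different clones of a line per the series record, which does not say that the same number with and without Dox is the same clone. Other alternatives were pseudocounts of 0.5 and 5, no filter or one of 50, quantile or 75th percentile scaling, only the groups compared, no trend, a fold minimum of 1 or none, Dox libraries only, and each library left out in turn.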

Additional observations from a re-analysis of the deposited data

Results flagged for a closer look

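The Dox effects of 6 members differed past the threshold (limma adjusted p under 0.05 over all kept genes and the fold minimum of 1.5) in at least 1 of 12 tests of the difference itself, 9 between matched lines and 3 means over them. By adjusted p alone there were 8, with Kdm1a and Rcor1 below the fold minimum. Under this rule 34%, 30.6% and 11% of all genes passed in the means for Gfi1, Atoh1 and Pou4f3, and shares for single pairs were not counted. The mean difference of Kdm1a with Atoh1 was 0.37 (adjusted p = 9.3e-05), and that of Rcor1 was −0.38 with Atoh1 (0.00518) and 0.34 with Gfi1 (0.00864). Of all genes, 1.61% to 8.54% passed the threshold in each test between matched lines, and 7.91%, 5.13% and 2.72% in the means for Gfi1, Atoh1 and Pou4f3. For Insm1 the log2 differences were 7.49 (iG+A minus iGfi1), 5.37 (iP+A minus iPou4f3), 6.84 (iGPA minus iG+P) and 6.57 (mean) with Atoh1. They were 4.64 (iP+A minus iAtoh1) and 2.48 (mean) with Pou4f3, and 4.33 (iG+A minus iAtoh1) with Gfi1. For Gfi1b they were −3.03 (iG+A minus iGfi1) and −2.0 (mean) with Atoh1. For Snai2 they were −3.19 (iG+A minus iAtoh1), −3.29 (iG+P minus iPou4f3), −2.19 (iGPA minus iP+A) and −2.89 (mean) with Gfi1. For Rcor2 they were 1.91 (iG+A minus iGfi1), 1.66 (iGPA minus iG+P) and 1.63 (mean) with Atoh1.

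Snai1 had a larger Dox effect in iG+A than in iGfi1 cells by 1.68, whereas the other pairs for Atoh1 gave 0.32 and 0.38. Snai3 had a larger Dox effect in iGPA than in iP+A cells by 2.64, where iP+A No Dox replicate 2, the library with the highest sum of pluripotency genes, held its highest value.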

How the results depend on the processing

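No member changed direction past the threshold under any alternative. Of the recomputed member values, 3836 kept their side of the threshold, 38 newly passed it and 36 lost it. This tally does not measure how stable a call is. A line's fold change could not move when a library of another line was left out. A lower fold minimum, or none, could only add calls. In iGfi1 cells 2 members passed in the fit reported (4.82% of all genes), but 1 with a pseudocount of 0.5 (4.78%), 1 with a pseudocount of 5 (3.91%), 1 without a trend (4.72%), 0 with quantile normalization (4.89%), 0 with only the groups compared (4.6%), 1 with a filter of 50 normalized counts (4.59%) and 0 to 2 when 1 library was left out (3.05% to 5.23%). With only the groups compared, where fewer libraries estimate the spread, there were also 0 in iPou4f3 and 1 in iP+A cells, where 0.802% and 5.36% of all genes passed, against 2.08% and 7.29% in the fit reported. With a fold minimum of 1 there were 4 in iAtoh1 cells, 3 for Gfi1 and 2 for Pou4f3, where 8.85%, 13.7% and 4.62% of all genes passed. With adjusted p alone there were 4 in iAtoh1, 4 in iG+P and 6 in iP+A cells, 5 for Gfi1, 6 for Atoh1 and 2 for Pou4f3, where 23.1%, 33.8%, 24.9%, 34%, 30.6% and 11% of all genes passed. With Dox libraries only there were 2 for Gfi1 (1 with all libraries) and 2 for Atoh1 (3 with all libraries), where 7.95% and 4.72% of all genes passed, and leaving out 1 library gave 1 to 2 for Gfi1 (7.4% to 8.33% of all genes). The replicate block gave 5 members in iG+A (12.7% of all genes) and 4 in iGPA cells (14.2%), the same members counts as without it, and changed no call of a member past the threshold. By adjusted p alone it changed 4 calls, with Snai1 passing in iPou4f3 (0.0448) and iGPA cells (0.00901) and Rcor1 in iP+A cells (0.0247), while Snai3 no longer passed for Gfi1 (0.0528). Insm2 and Snai3, and Insm1 without Dox, rest on few reads.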

Other observations

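The Dox effects of proliferation genes differed with Atoh1. All 8 genes examined had a more negative Dox effect with Atoh1 by adjusted p alone (limma), with a median of −0.68 against 0.01 for all genes, and 0 reached the fold minimum (8 at an unadjusted p under 0.05). Mki67, a marker of cycling cells, differed by −0.82 (1.06e-05) and Top2a, a topoisomerase of dividing cells, by −0.69 (5.16e-05). In iGPA cells 8 of the 8 were lower by adjusted p alone, in iAtoh1 and iG+A cells 6 each and in iP+A cells 4. The fold changes in iP+A cells ran from −0.61 to 0.03. In the lines without Atoh1, 2 were higher in iGfi1 (median 0.27), 1 in iG+P (0.17) and 0 in iPou4f3 cells (−0.06), and 0 were lower by this rule. With Gfi1 the median was −0.05 and with Pou4f3 −0.05, with 0 genes past either rule by limma and 0 at an unadjusted p under 0.05.

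Before Dox, the members differed between lines and clones. Over the 14 No Dox libraries the highest level exceeded the lowest 11.7-fold for Insm1, 9.76-fold for Insm2, 6.51-fold for Snai3, 3.87-fold for Gfi1b, 3.76-fold for Snai2 and 3.25-fold for Snai1. For the corepressor genes it was 2.39-fold for Rcor2, 2.02-fold for Rcor1, 1.67-fold for Rcor3 and 1.27-fold for Kdm1a.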
